A study of Mus musculus with 6 samples.

Results

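AP-1 is a dimeric transcription factor built from Fos and Jun proteins, and its genes are examined here with related immediate early genes as a set of 10: Fos, Fosb, Fosl1, Fosl2, Jun, Junb, Jund, Egr1, Atf3 and Ier3. The set was chosen by gene symbol, and all 10 were found among the 21966 genes of the deposited RNA-seq table. Immediate early genes are transcribed within minutes of a growth factor or stress signal, without new protein synthesis, and their mRNAs are short-lived. Signals that pass through the Erk and Jnk kinases reach them through serum response factor and its partners and through phosphorylation of Jun itself. In intestinal epithelium, Jun and Fos activity is known to accompany Wnt signaling, wounding and tumor growth.

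The study describes the RNA as coming from primary tumor cell cultures of the mouse colon. PID+ cells (mice CDX2P-NLS-Cre;APC^Δ/+;ROSA26-PID) carried the PID, an autoinhibitory peptide of Pak1 that blocks Group I Paks, at the Rosa26 locus. The study derived its PID- cells from control littermates without it (CDX2P-NLS-Cre;APC^Δ/+), while the sample labels call the PID- samples normal and untreated. Going by the study's description, both groups shared the deletion in Apc and the Cre driven by a CDX2 promoter. This promoter acts mostly in the lining of the large bowel and lower small bowel. Each condition had 3 samples, numbered 4, 7 and 26 for PID+ and 1, 2 and 3 for PID-. The labels give no age, and the study states one for its cohorts of mice but not for each culture. The PID- numbers are not those the study gives its PID- tumor cells, so whether these are the same cultures is not known. The treated condition of the table was taken as PID+ from the labels, and this was not checked on the transgene, which the table does not list. The 3 sets of reads of a condition were merged before quantification, so each gene has 1 pooled FPKM (fragments scaled by transcript length and sequencing depth) per condition with the interval CuffDiff gave it. No difference below has a replicate check, cultures cannot be told apart from conditions, and no p-value was calculated.

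Atf3 was the single gene of the set that passed a 3-fold difference, and it was lower in PID+ cells. Changes are log2 ratios of FPKM + 1 in PID+ over PID- cells, a scale that understates changes at low FPKM, and a gene was called higher or lower where the ratio reached 3-fold. None of the 10 genes was higher by this rule and 1 was lower. Among all 21959 genes with a valid status in both conditions, 1.04% were at least 3-fold higher and 1.72% at least 3-fold lower, and among the 9341 with a mean FPKM of at least 5, which include 9 of the 10 genes, the shares were 1.54% and 2.37%. At 2-fold, Fos was higher and Egr1 joined Atf3 as lower, so that 1 and 2 genes passed, against 5.01% and 5.2% of the 9341 genes. The deposited intervals of PID+ and PID- cells overlapped for all 10 genes, as they did for most of the 9341, of which 0.375% had intervals apart and a higher value in PID+ cells and 0.974% intervals apart and a lower one. The median log2 change of the set was -0.33, with 4 positive and 6 negative values, while the median over all genes was 0 and over the 9341 genes -0.0012. When Gapdh was set equal between the conditions, which moved the median of the 9341 genes by -0.58, the set had 2 positive and 8 negative values, Fosl1 and Junb having changed sign, and Egr1 also passed 3-fold.

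**Figure D1:**
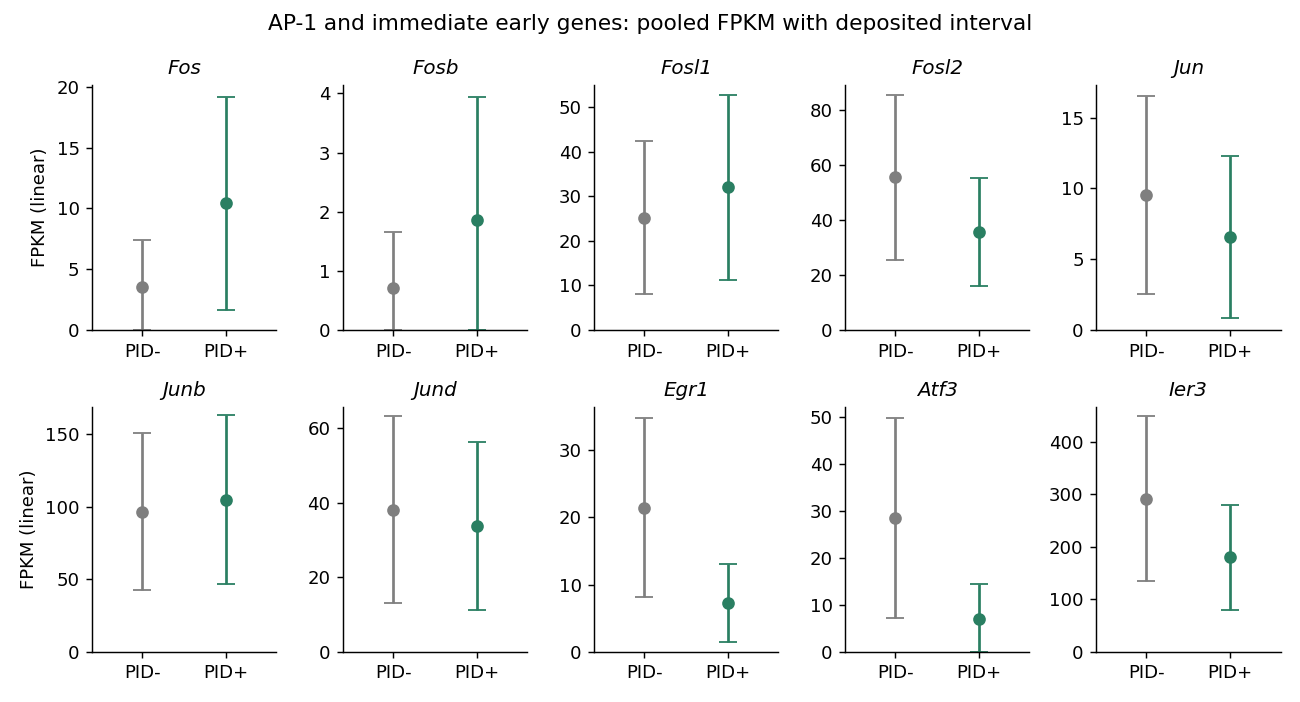
Pooled FPKM of each of the 10 genes (linear axes from 0, a separate scale per gene) in PID- cells (grey) and PID+ cells (green), with bars for the deposited CuffDiff interval. The intervals overlap in every panel, and Atf3, with 28.5 in PID- and 6.94 in PID+ cells, shows the largest fall on the log2 scale.

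Fos family proteins bind DNA as dimers with Jun proteins, and the 4 genes of the family had log2 changes of both signs, none past 3-fold. Fos (ENSMUSG00000021250.10, chromosome 12 of GRCm38 from 85473890 to 85477273), the classical serum-induced member, had an FPKM of 10.4 in PID+ cells (interval 1.61 to 19.2) versus 3.52 in PID- cells (0 to 7.44). This was a log2 change of 1.34, which stayed between 0.78 and 1.54 under the other scalings and pseudocount. Fosb (ENSMUSG00000003545.2, chromosome 7 from 19302696 to 19310051), which is induced with Fos, was the least abundant gene of the set, with 1.87 in PID+ (0 to 3.95) versus 0.705 in PID- cells (0 to 1.65). Its log2 change was 0.75, and 0.37 with Gapdh set equal. Fosb was the single gene of the set with a mean FPKM under 5. Fosl1 and Fosl2 encode Fra-1 and Fra-2, Fos relatives that lack the strong activation domain of Fos and are made later after a stimulus. Fosl1 (ENSMUSG00000024912.5, chromosome 19 from 5447547 to 5455946) reached an FPKM of 31.98 in PID+ (11.2 to 52.8) versus 25.2 in PID- cells (8.03 to 42.4), giving a log2 change of 0.33 that turned to -0.27 with Gapdh set equal. Fosl2 (ENSMUSG00000029135.9, chromosome 5 from 32135801 to 32157842) had 35.6 in PID+ (16.0 to 55.2) versus 55.7 in PID- cells (25.5 to 85.8). Its log2 change was -0.63, and -1.23, past 2-fold, with Gapdh set equal. The family thus held the largest positive value of the set, in Fos, beside a negative one in Fosl2.

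Seen as a pool, Fos family mRNA had nearly the same sum in both conditions on the deposited scale and a different composition. The summed FPKM of the 4 genes was 79.9 in PID+ versus 85.1 in PID- cells. Fosl2 made up 44.6% of this sum in PID+ and 65.4% in PID- cells, Fosl1 40.0% and 29.6%, Fos 13.0% and 4.14%, and Fosb 2.34% and 0.828%. Fra-1 and Fra-2 mRNA together therefore outweighed Fos and Fosb in both conditions, and Fosl2 ranked above Fosl1 in each. These shares compare genes per transcript length within a condition and do not depend on the scaling between conditions, but they carry the wide intervals of the single genes.

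The Jun family, whose members can dimerize with each other as well as with Fos proteins, was mostly Junb by summed FPKM in both conditions. Junb (ENSMUSG00000052837.5, chromosome 8 from 84974484 to 84978718), which can act as a weaker activator than Jun and restrains the cell cycle in several cell types, had the highest FPKM of the family, 105 in PID+ (46.9 to 163) versus 96.7 in PID- cells (42.4 to 151), although these intervals overlap those of Jund in both conditions. Its log2 change was 0.12, and -0.50 when Gapdh was set equal. Jund (ENSMUSG00000071076.5, chromosome 8 from 70698949 to 70700616), the member expressed most constantly across cell states, had 33.6 in PID+ (11.04 to 56.2) versus 38.0 in PID- cells (13.0 to 63.1). Its log2 change was -0.17, and -0.78 with Gapdh set equal. Jun (ENSMUSG00000052684.4, chromosome 4 from 95049034 to 95052222), the target of the Jnk kinases, had 6.55 in PID+ (0.827 to 12.3) versus 9.52 in PID- cells (2.51 to 16.5), giving a log2 change of -0.48. The chromosome 4 median was -0.31, and Jun stood at -0.17 once this was subtracted. The summed FPKM of the family was 145.1 in PID+ versus 144.2 in PID- cells. Junb made up 72.3% and 67.0% of it, Jund 23.2% and 26.4%, and Jun 4.51% and 6.60%. These shares also carry the wide intervals of the single genes, and their differences were not tested.

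**Figure D2:**
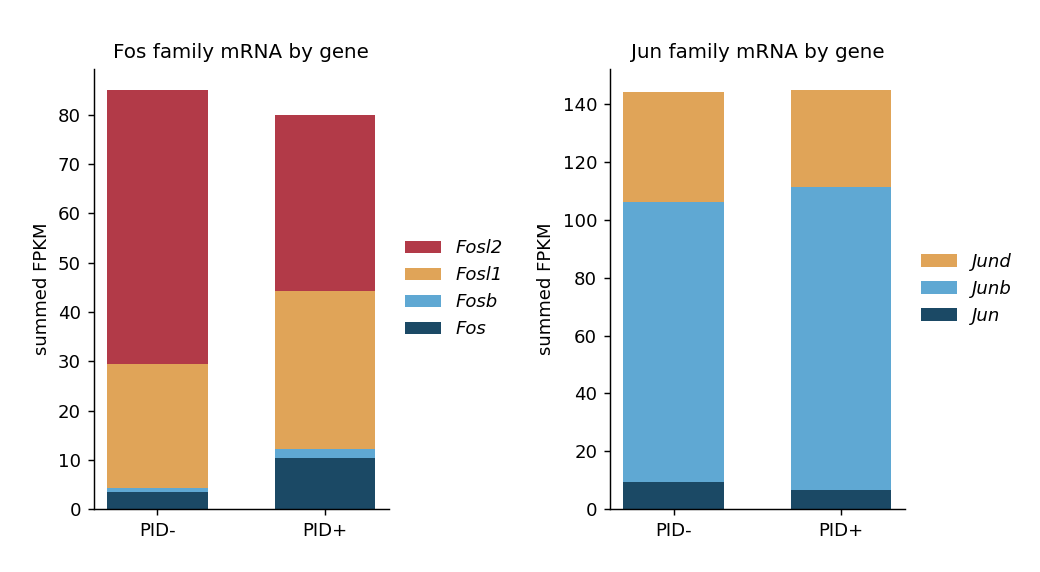
Summed FPKM (linear axis from 0) of the Fos family (left) and the Jun family (right) in PID- and PID+ cells, with each colored segment the FPKM of 1 gene. The Fos family sums to 85.1 in PID- and 79.9 in PID+ cells with a smaller Fosl2 and a larger Fos segment in PID+ cells, while the Jun family is mostly Junb in both.

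Egr1, a zinc finger factor that responds to Erk signaling through serum response elements, passed 2-fold but not 3-fold, and was lower in PID+ cells. Egr1 (ENSMUSG00000038418.7, chromosome 18 from 34859823 to 34864984) reached an FPKM of 7.22 in PID+ (1.37 to 13.1) versus 21.4 in PID- cells (8.07 to 34.8), giving a log2 change of -1.45. The value ranged from -1.98 to -1.43 over the alternatives, and its intervals overlapped from 8.07 to 13.1. Egr1 and Fos, which are usually induced by the same stimuli, thus had log2 changes of opposite sign, and this held in every scaling tried.

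Atf3, a stress-induced factor that dimerizes with Jun proteins and often represses its targets, fell in PID+ cells. Atf3 (ENSMUSG00000026628.10, chromosome 1 from 191170296 to 191218039) reached an FPKM of 6.94 in PID+ (0 to 14.4) versus 28.5 in PID- cells (7.19 to 49.8), a ratio of 4.11 for PID- over PID+ and a log2 change of -1.89. It ranged from -2.42 to -1.88 over the alternatives and passed 3-fold in each scaling and pseudocount, but its intervals overlapped between 7.19 and 14.4.

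Ier3, a stress-inducible gene that modulates cell survival and Erk and NF-κB signaling, was the most abundant of the 10 genes in both conditions. Ier3 (ENSMUSG00000003541.6, chromosome 17 from 35821684 to 35822923) reached an FPKM of 179.7 in PID+ (80.4 to 279) versus 291 in PID- cells (134 to 449). Its log2 change was -0.69, and -1.32, past 2-fold, with Gapdh set equal. Its mean FPKM lay at percentile 98.7 of all genes, that of Junb at 96.3 and that of Fosb at 49.0.

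The order of levels was similar in both conditions apart from Atf3 and Fos. In PID+ cells it ran Ier3, Junb, Fosl2, Jund, Fosl1, Fos, Egr1, Atf3, Jun and Fosb from the highest FPKM to the lowest. In PID- cells it ran Ier3, Junb, Fosl2, Jund, Atf3, Fosl1, Egr1, Jun, Fos and Fosb. Every neighbouring pair in both orders had overlapping intervals, so no single step is resolved, whereas Ier3 lay apart from Fosl2 in both conditions (lower bound 80.4 against an upper bound of 55.2 in PID+ cells, and 134 against 85.8 in PID- cells). The fewest reads, estimated approximately, were 237, for Fosb in PID- cells. The deposited intervals nevertheless reached 0 for Fosb in both conditions, for Fos in PID- and for Atf3 in PID+ cells. Exons of Junb overlap Prdx2, those of Fosl1 overlap Ccdc85b, and those of Jun and Jund overlap the antisense genes Junos and Gm11175. The library kit named in the labels does not mark strand, so reads of these pairs may have been shared. Where a partner was absent from the protein coding annotation used, its reads may instead have been added to the gene.

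Relatives of the set in the basic leucine zipper (bZIP) family gave a further 3 genes that fell, and none that rose, among 20 listed, against 1.72% lower and 1.04% higher over all genes. Atf5, a factor of the amino acid and mitochondrial stress response, had an FPKM of 12.4 in PID+ (0 to 28.9) versus 71.4 in PID- cells (24.0 to 119), giving a log2 change of -2.44. Ddit3, which encodes the stress factor CHOP, had 14.3 in PID+ (0 to 47.6) versus 56.1 in PID- cells (0 to 158), giving a log2 change of -1.90. Jdp2, a repressor that binds Jun, had 9.49 in PID+ (0.72 to 18.3) versus 32.5 in PID- cells (10.8 to 54.2), giving a log2 change of -1.67, and -1.56 with the chromosome 12 median of -0.11 subtracted, just short of 3-fold. The intervals of all 3 overlapped. Exons of each overlap another gene (Il4i1 and Nup62 for Atf5, Mars, Gm4189 and another Gencode entry also named Ddit3 for Ddit3, Gm47863 for Jdp2). The 3 most abundant of the list did not pass 3-fold. Atf4, which activates Atf3, Atf5 and Ddit3 under amino acid or endoplasmic reticulum stress and is itself controlled largely at translation, had 166 in PID+ versus 231 in PID- cells, giving a log2 change of -0.47. Nfe2l2, the antioxidant factor Nrf2, had 105.3 and 148 (-0.49), and Mafg, a small Maf partner of Nrf2, 37.9 and 50.3 (-0.40). The list as a whole had a median log2 change of -0.13, with 8 positive and 12 negative values, and of -0.72 with Gapdh set equal, with 2 and 18. With a pseudocount of 0.1, 4 of the list were lower, as were 795 of all 21959 genes.

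Since Atf3 fell together with these 3 relatives, their promoters are shown with the motifs found in them. The sequences are from RefSeq (GRCm38.p6), run from 250 bases before to 50 after an annotated start, and were used for 8 of the 10 genes of the set (not Egr1 and Fosl1) and for all 4 bZIP genes that fell. Motifs were searched on both strands: the serum response element, the cAMP response element TGACGTCA, its part TGACG (which lies within TGACGTCA), the AP-1 motif TGANTCA, the GC box GGGCGG, the TATA box TATAAA and the amino acid response motif TGATGCAA, the last added after the values had been seen. Among 32851 promoters the shares with a match were 1.63%, 1.79%, 20.8%, 7.81%, 35.7%, 13.6% and 0.895% in this order. Of the 8 promoters of the set, 4 (Fos, Fosb, Junb and Atf3) held TGACG, 6 held GGGCGG, 2 (Fos and Junb) held TATAAA and 1 (Atf3) held TGATGCAA. The TATAAA of Fos lay from -33 to -28 of the start used, and that of Junb from 0 to 5, at a start upstream of the Gencode gene. None held a serum response element, TGACGTCA or TGANTCA within this window. Sequence further upstream was not searched, so this does not show that these genes lack such sites. Of the 4 bZIP genes that fell, Atf3 and Jdp2 held both TGACG and TGATGCAA, and Ddit3 held TGANTCA. The promoters of Atf5 held GGGCGG and none of the other motifs. These 4 genes were picked because they fell, and Jdp2 and Atf5 were counted by any of several promoters whereas the shares are per promoter, so their matches are not compared with the shares. A match describes the letters only. In the sequences below, written 5′ to 3′ on the strand of the gene, capitals mark matches on either strand to any of these motifs except GGGCGG. They lie at chr1:191183284-191183583 on the minus strand (Atf3), chr12:85599166-85599465 on the plus strand (Jdp2, the 1 of its 3 promoters with such a match) and chr10:127290543-127290842 on the plus strand (Ddit3). The windows of Atf3 and Fosl2, 2 of the 3 of Jdp2 (the printed one included) and 1 of the 2 of Atf5 lie within the Gencode gene, downstream of its outermost start, and that of Jund, which held none of the motifs, ends at 70697788, before the Gencode gene starts at 70698949.
Atf3: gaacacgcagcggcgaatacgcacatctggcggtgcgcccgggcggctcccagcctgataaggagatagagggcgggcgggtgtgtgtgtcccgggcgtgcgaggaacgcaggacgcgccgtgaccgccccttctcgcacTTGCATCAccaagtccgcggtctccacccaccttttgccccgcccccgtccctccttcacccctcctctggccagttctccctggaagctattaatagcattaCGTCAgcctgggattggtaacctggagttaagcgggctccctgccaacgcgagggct
Jdp2: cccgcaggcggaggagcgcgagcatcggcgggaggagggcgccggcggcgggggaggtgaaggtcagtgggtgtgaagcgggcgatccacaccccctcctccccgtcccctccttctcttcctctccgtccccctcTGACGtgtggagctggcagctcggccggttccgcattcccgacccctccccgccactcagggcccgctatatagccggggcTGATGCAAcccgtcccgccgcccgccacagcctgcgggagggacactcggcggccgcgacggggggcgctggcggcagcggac
Ddit3: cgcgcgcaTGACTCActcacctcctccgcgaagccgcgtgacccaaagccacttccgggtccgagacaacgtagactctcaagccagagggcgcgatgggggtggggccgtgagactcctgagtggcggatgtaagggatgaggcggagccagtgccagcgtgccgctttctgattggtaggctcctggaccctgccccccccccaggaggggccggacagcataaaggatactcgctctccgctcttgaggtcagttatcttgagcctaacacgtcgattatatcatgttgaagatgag

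Of 38 other immediate early genes listed, 2 rose and none fell by 3-fold (over all genes 1.04% and 1.72%), and the median log2 change was 0.03, with 20 positive and 18 negative values. With Gapdh set equal, 1 gene was at least 3-fold higher and 2 lower (76 and 662 of all 21959 genes), the median was -0.46 and 13 values were positive and 25 negative. With a pseudocount of 0.1, 3 were higher and 2 lower (621 and 795 of all genes). Dusp1, a phosphatase that switches off Map kinases, rose from an FPKM of 19.3 in PID- cells (4.86 to 33.8) to 108 in PID+ cells (44.2 to 172), giving a log2 change of 2.42, with intervals apart. It stayed above 3-fold in every scaling, and its exons overlap those of Ergic1. Cyr61, a secreted matrix protein, rose from 51.2 (21.3 to 81.1) to 165 (75.7 to 255), giving a log2 change of 1.67 with overlapping intervals. This call was lost with equal total FPKM (1.57), with Gapdh set equal (1.05) and with the median of chromosome 3 subtracted (1.42). Ctgf, a relative of Cyr61, was the most abundant gene of the list, with 1024 in PID+ versus 994 in PID- cells, and Klf6, a zinc finger factor, had 102 and 90.4.

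None of the 26 genes listed here as acting on AP-1 passed 3-fold in either direction, against 1.04% higher and 1.72% lower over all genes. This held for the 6 genes of serum response factor and its cofactors (median log2 change -0.20, and -0.76 with Gapdh set equal), for the 14 Jun and Fos kinases (-0.19 and -0.67) and for the 6 regulators of Jun and Fos protein (-0.07 and -0.64). At the shares over all genes, having none among 26 does not set these lists apart. Of the 26 values, 5 were positive, and 1 with Gapdh set equal. Among the cofactors, the ternary complex factors Elk3 and Elk4 had FPKM of 52.4 and 19.9 in PID+ and 67.5 and 22.2 in PID- cells, and Mkl1, which links actin to serum response factor, 14.0 and 15.9. Mapk3, which encodes Erk1, had 42.0 in PID+ versus 82.8 in PID- cells, giving a log2 change of -0.96. Map2k4, a kinase of Jnk, had 42.3 and 35.8. The ubiquitin ligase gene Nedd4 had 293 and 384, and Cops5, which binds Jun, 83.3 and 82.1. Kinase activity was not measured by these data.

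Genes known as AP-1 targets went in both directions, with 9 positive and 9 negative log2 changes among 18 (5 and 13 with Gapdh set equal) and a median of -0.11 (-0.65 with Gapdh set equal), and the 3 that passed 3-fold all fell, against 1.72% of all genes. With a pseudocount of 0.1, 6 were lower (795 of all 21959 genes). Spp1 (osteopontin) had 63.8 in PID+ versus 782 in PID- cells, giving a log2 change of -3.59, with intervals apart. Mmp13, a collagenase, had 0.0998 in PID+ (0 to 0.297) versus 4.12 in PID- cells (0 to 8.24), giving a log2 change of -2.22. The abundant targets Cd44, a hyaluronan receptor, with 488 in PID+ versus 231 in PID- cells, and Ccnd1, a cyclin of G1 phase, with 373 and 300.0, did not pass, and the log2 change of Ccnd1, 0.31, turned to -0.31 with Gapdh set equal. Over these 6 lists together, 2 of 102 genes were at least 3-fold higher and 6 at least 3-fold lower, with a median log2 change of -0.07. With Gapdh set equal the counts were 1 and 9 and the median -0.62, and over all genes they went from 229 and 377 to 76 and 662.

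**Figure D3:**
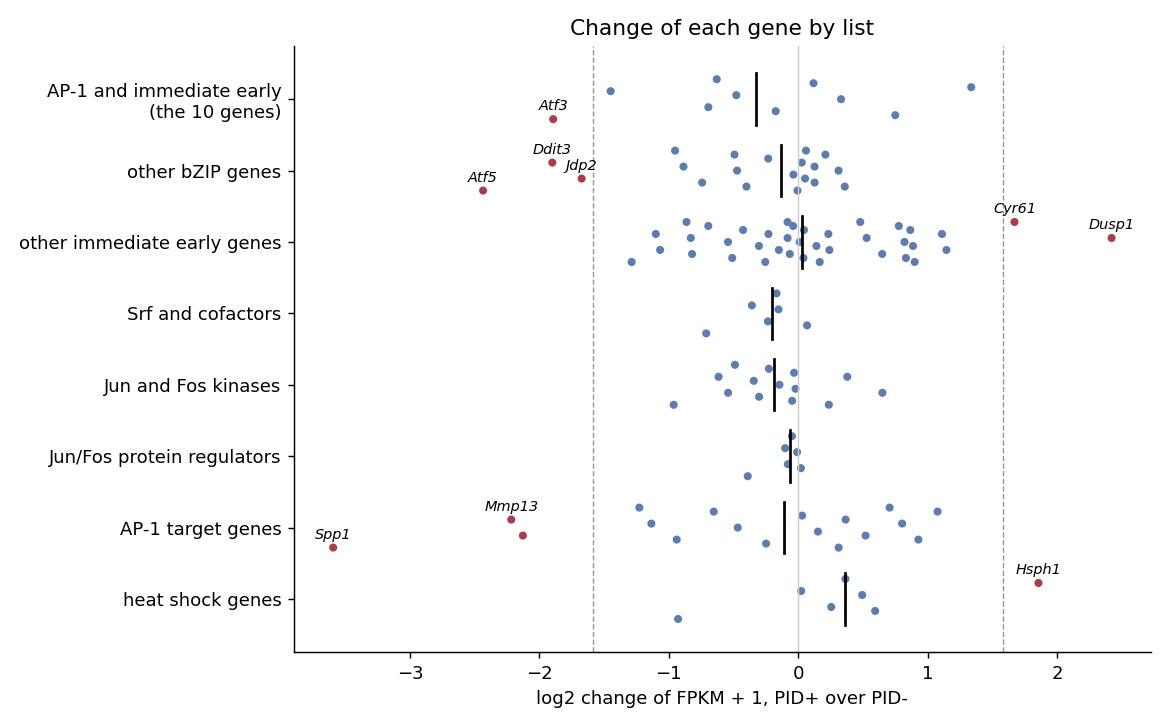
Log2 change of FPKM + 1, PID+ over PID- cells, of each gene (points, spread vertically for legibility) in the 10-gene set, the 6 related lists and the heat shock genes, with black bars for the medians and dashed lines at 3-fold. Red points passed 3-fold, and those named in the text are labelled: Atf3, Atf5, Ddit3, Jdp2, Spp1 and Mmp13 lie to the left, and Dusp1, Cyr61 and Hsph1 to the right.

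Handling of cultures can induce immediate early and heat shock genes, so the latter were examined beside them. Of 7 heat shock genes, Hsph1 rose, from 29.1 in PID- to 108 in PID+ cells (log2 change 1.86, intervals apart, and 1.24, short of 3-fold, with Gapdh set equal), and none fell. Over all genes, 1.04% were at least 3-fold higher and 1.72% at least 3-fold lower. The list's median log2 change was 0.36, and -0.23 with Gapdh set equal. The abundant chaperones Hspa8 and Hsp90aa1 had 1524 and 623 in PID+ and 1277 and 412 in PID- cells, and Hspb1 74.9 and 144, while the inducible Hspa1a had 1.12 and 1.09, Hspa1b 4.36 and 2.81 and Dnajb1 26.4 and 20.3. The log2 change was positive for 6 of the 7 genes, and for 2 with Gapdh set equal. Of 8 housekeeping genes none passed 3-fold (median 0.08, and -0.53 with Gapdh set equal). Their log2 changes were 4 positive and 4 negative, from -0.86 (Hprt) to 0.72 (Rplp0). Ppia had 2530.4 in PID+ versus 2143 in PID- cells and Actb 1909 and 1433, and both differences changed sign when Gapdh, at 2570.3 and 1666, was set equal. Gapdh itself had a log2 change of 0.62 and lies on chromosome 6, whose median was 0.34, so scaling to it lowers every value and is 1 choice among several. Whether handling differed between the cultures was not tested.

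Keratin and Epcam mRNA was present in both conditions, whereas mesenchymal transcripts differed widely. The 11 epithelial markers summed to an FPKM of 9351 in PID+ versus 5141 in PID- cells, with Krt19, Krt8 and Krt18 the most abundant (2469, 2745 and 2843 in PID+, 2073, 1319 and 1199 in PID- cells). Epcam (400.5 and 124) and Cldn7 (274 and 79.4) rose, although both stayed under 3-fold with Gapdh set equal, and Epcam also with equal total FPKM, and Cdx2 fell (0.542 and 8.04). The intestinal marker Vil1 was near 0 in both conditions (0.176 and 0.0614), and Lgals4 was low (1.86 and 3.43). The 9 fibroblast markers summed to 22.1 in PID+ versus 1031 in PID- cells. Vim, which made up most of that sum (19.1 and 997), Col1a1 (2.32 and 11.9), Col1a2 (0.0654 and 11.9), Col3a1 (0.339 and 6.35) and Dcn (listed at 0, and 2.39) fell, and Lum was listed at 0 in both. Fewer cells of a type and less RNA per cell cannot be told apart in such bulk cultures, and the part of this difference in the values of Atf3, Egr1, Fosl2 or their relatives was not tested.

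Markers of blood and vessel cells were near 0 apart from single genes. Of 7 macrophage and leukocyte markers 6 were under an FPKM of 1 in both conditions, Ptprc at 0.0264 in PID+ versus 0.00811 in PID- cells, Csf1r at 0.0595 and 0.233 and Aif1 at 0.105 and 0.0665, while Cd68, which other cells also express, had 21.8 and 16.8. The list summed to 22.1 and 17.2. Of 7 mast cell and basophil markers Mcpt8 rose (82.5 and 9.60), 4 defining genes (Cpa3, Fcer1a, Ms4a2 and Tpsb2) were listed at 0 in both conditions, and Kit (0.601 and 0.409) and Mcpt4 (0.0363 and 0.158) were low, with sums of 83.1 and 10.2. The 5 lymphocyte markers summed to 0.133 and 0.0250, with Cd79a (0.126 and 0.0250) the highest, and Cd3e, Cd3g and Nkg7 listed at 0. The 5 endothelial markers summed to 3.77 and 1.12, nearly all from Kdr (3.33 and 1.01), with Cdh5 at 0.219 and 0.00279 and Pecam1 at 0.0960 and 0.0931. The 5 smooth muscle markers summed to 5.77 and 13.0, mostly Acta2 (4.39 and 9.76), with Tagln at 1.02 and 2.93 and Cnn1 at 0.188 and 0.204. A gene needs an FPKM of at least 2 in a condition to reach 3-fold on FPKM + 1, so most of these markers could not pass. With a pseudocount of 0.1, Kdr (log2 change 1.62) and Cdh5 (1.64) were more than 3-fold higher in PID+ cells.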

How the data were processed

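Poly(A) RNA-seq of what the study describes as tumor cell cultures was analysed from the table the authors deposited. The authors trimmed reads with CutAdapt, aligned them with TopHat to GRCm38.p3 (protein coding annotation), pooled the 3 read sets of a condition, and deposited gene FPKM from CuffDiff with compatible hits normalization. The bounds of the intervals, which cover CuffDiff's error model only, were used as given. Following the labels, the condition named treated was read as PID+ and the untreated condition as PID-. The labels name 3 mice per condition, where the methods speak of replicated runs. A replicated test had been foreseen for values per sample, but the table holds 1 pooled FPKM per condition, so none was run. Of 21966 genes, 7 without a valid status in a condition were left out.

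Changes were computed on FPKM + 1, with calls at 3-fold. The 10 genes and all gene lists were chosen with earlier results of these data known. Genes named are the 10, the listed genes past 3-fold whose higher FPKM was 1 or more, and the 3 most abundant of each list, apart from some that are not reported here; other names (among them Ptprc, Lum, Vil1, Lgals4, Hspa1a, Hspa1b, Dnajb1 and markers listed at 0) were chosen after their values were seen. Positions, transcripts and overlaps came from Gencode M21 (GRCm38). Depth is unknown: reads were estimated from the steps between low values of genes with 1 transcript (length less 180 bases; 90.3% of such values in PID+ and 91.0% in PID- cells lay within 0.1 of a whole read), with the longest transcript for other genes, and are approximate. The estimated FPKM per read was higher in PID+ cells, by a ratio of 1.38. The calculations were tested on simulated data with large planted changes and little noise, which checks the code and not the reliability of the calls. The alternatives tried were pseudocount 0.1, scaling to the same total, upper quartile or Gapdh FPKM, the median subtracted, a mean FPKM of at least 5, a 2-fold threshold, intervals apart and, added after seeing the data, chromosome medians subtracted. Python 3.11.15, numpy 2.4.6, pandas 2.3.3 and matplotlib 3.10.9 were used.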

Additional observations from a re-analysis of the deposited data

How the results depend on the processing

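Of 30 values of the 10 genes under the 3 alternatives that could change a sign (equal total FPKM, Gapdh set equal and chromosome medians subtracted), 28 kept the sign of the reported value. The other 2 were Fosl1 (-0.27) and Junb (-0.50) with Gapdh set equal. Genes of the set at least 3-fold lower numbered 2 with Gapdh set equal, and 0 by intervals apart. At 2-fold, 1 was higher and 2 lower. The median of the set ranged from -0.89 with Gapdh set equal to -0.11 with chromosome medians subtracted, an alternative chosen after seeing the data.

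Of the 102 listed genes, 12 were lower with a pseudocount of 0.1. The number higher was 3 with that pseudocount, and 1 each with equal total FPKM, with Gapdh set equal, with chromosome medians subtracted and by intervals apart, which left 2 lower. At 2-fold, 5 were higher and 11 lower. Over all genes, higher and lower numbered 621 and 795 with a pseudocount of 0.1, 76 and 662 with Gapdh set equal, 144 and 221 at a mean FPKM of 5 or more, 726 and 828 at 2-fold, and 41 and 119 by intervals apart. The causes were not tested.

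No paired analysis was possible because the values are pooled and the groups share no sample number, and leaving out a replicate was not possible for the same reason. The deposited intervals limit what can be resolved: over the genes at a mean FPKM of 5 or more, their median half-width was 79.8% of the value for PID+ and 78.5% for PID-.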

Other observations

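Beyond the genes named above, other immediate early genes differed by 2-fold but not 3-fold, and these were chosen after their values were seen. Nr4a1, an orphan nuclear receptor, had an FPKM of 13.8 in PID+ versus 5.68 in PID- cells (log2 change 1.15), and Zfp36, which promotes decay of mRNAs with AU-rich elements, 28.7 and 12.8 (1.11). Klf4, a factor of epithelial differentiation, had 8.496 in PID+ versus 22.2 in PID- cells (-1.29), Gadd45a, a stress sensor, 19.6 and 42.3 (-1.07), and Gem, a small GTPase, 0.249 and 1.68 (-1.10, and -2.35 with a pseudocount of 0.1, past 3-fold). These are the 2 higher and 3 lower genes of the list between 2-fold and 3-fold, and the intervals of all 5 overlapped. Over all 21959 genes, 726 were at least 2-fold higher and 828 lower, of which 229 and 377 passed 3-fold. With Gapdh set equal, Klf4 (-1.83) and Gadd45a (-1.66) passed 3-fold, Gem (-1.21) did not, and Nr4a1 (0.57) and Zfp36 (0.51) no longer passed 2-fold. With chromosome medians subtracted, Klf4 (-0.97), Gem (-0.79), Nr4a1 (0.96) and Zfp36 (0.86) were all under 2-fold, while Gadd45a (-1.41) stayed past it. The list of 38 genes thus held values of both signs, as the 10-gene set did.

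Among the AP-1 targets, the plasminogen activator Plau had 96.6 in PID+ versus 50.3 in PID- cells (log2 change 0.93) and its receptor Plaur 71.2 and 40.4 (0.80), both with overlapping intervals. With Gapdh set equal their values were 0.31 and 0.19. At 2-fold, 1 gene of the list was higher and 5 were lower (726 and 828 of all 21959 genes). The lower ones included Mmp3 (log2 change -1.23) and Timp1 (-1.14), both with overlapping intervals.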
